A study of Mus musculus with 4 samples.

Results

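Short regions of strong H3K27me3 with little H3K4me3 were described in fibroblasts cultured from mouse embryos (MEF), the cells that lay down connective tissue. H3K27me3 is histone H3 trimethylated at lysine 27, the mark that Polycomb repressive complex 2 writes and that Polycomb repressive complex 1 can bind. In mammals it is best known over CpG-rich promoters of silent developmental genes, where it often sits beside H3K4me3, the mark of active and poised promoters. Short H3K27me3 regions that lack H3K4me3 are one of the other layouts that the mark takes, next to long domains. H3K9me3, trimethylation at lysine 9, is the mark of constitutive heterochromatin and is written by other enzymes.

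The islands were chosen from 2 of the 4 libraries. Reads were counted in 5 kb bins of chromosomes 1 to 19 of mouse build mm8, and a level is given as fold, the reads of a bin over the library's mean. Adjacent bins of 2-fold or more MEF H3K27me3 were joined, which gave 19222 regions. An island is such a region under 50 kb, with at least 1 bin of 5-fold or more and with every bin under 2-fold MEF H3K4me3. There were 523 of them, or 2.72% of the joined regions. They covered 2159 bins, or 0.463% of the 465838 autosomal bins with a read, and held 2.00% of the H3K27me3 reads. Since the MEF H3K27me3 and H3K4me3 reads chose the islands, their levels in these libraries are a description, while both H3K9me3 libraries were not used for the choice.

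Each of the 4 groups held 1 library of chromatin immunoprecipitation with sequencing. In secondary MEF, H3K9me3 was profiled. These cells were taken at 13.5 days post coitum from chimeric embryos, made by injection of induced pluripotent stem cells into BDF2 blastocysts. The injected line carried doxycycline-inducible Oct4, Klf4 and Sox2 and an Oct4-selectable cassette, had been derived in Wnt3a-conditioned medium, and a 48 hour selection in 2 µg/ml puromycin kept the cells that descended from it; they were grown in 10% cosmic calf serum. In MEF grown in DMEM with 10% FBS, H3K9me3, H3K27me3 and H3K4me3 were profiled. The labels used here give no strain or age for these MEF, no number of embryos for either source, and no doxycycline treatment of the secondary cells. The H3K9me3 antibody lot was the same for both sources, while the run names in the labels differed. No difference has a replicate check, and intervals cover counting error only.

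Autosomal reads with 1 location numbered 7852786 for secondary MEF H3K9me3, 8712483 for MEF H3K9me3, 9559012 for MEF H3K27me3 and 12027212 for MEF H3K4me3, or 16.9, 18.7, 20.5 and 25.8 reads per bin. The median autosomal bin stood at 0.830-fold, 0.855-fold, 0.634-fold and 0.310-fold in this order, because few high bins raise each mean. Input libraries and a gene annotation of this build were not used here, so islands are named by position and the cell type was not checked against marker genes. In bulk chromatin, a mark on few cells and a weaker mark on all cells cannot be told apart.

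Most islands stood only a little above the height that defines them, and the highest islands were longer. The highest bin had a median of 6.09-fold H3K27me3, with quartiles of 5.41-fold and 7.31-fold. Of the 523 islands 255 (48.8%) peaked between 5-fold and 6-fold, 180 between 6-fold and 8-fold, 48 between 8-fold and 10-fold and 40 at 10-fold or more. The most frequent length was 10 kb, with 112 islands, while 54 were a single bin and 32 were 45 kb long. The median highest bin was 5.77-fold at 5 kb, 6.02-fold at 10 kb, 5.97-fold at 25 kb, 7.24-fold at 40 kb and 6.41-fold at 45 kb. The median length was 15 kb in islands that peaked under 8-fold, 25 kb in those between 8-fold and 15-fold and 35 kb in the 6 of 15-fold or more. Over the whole of each island the median level was 4.24-fold H3K27me3, from 2.97-fold to 9.67-fold.

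**Figure D1:**
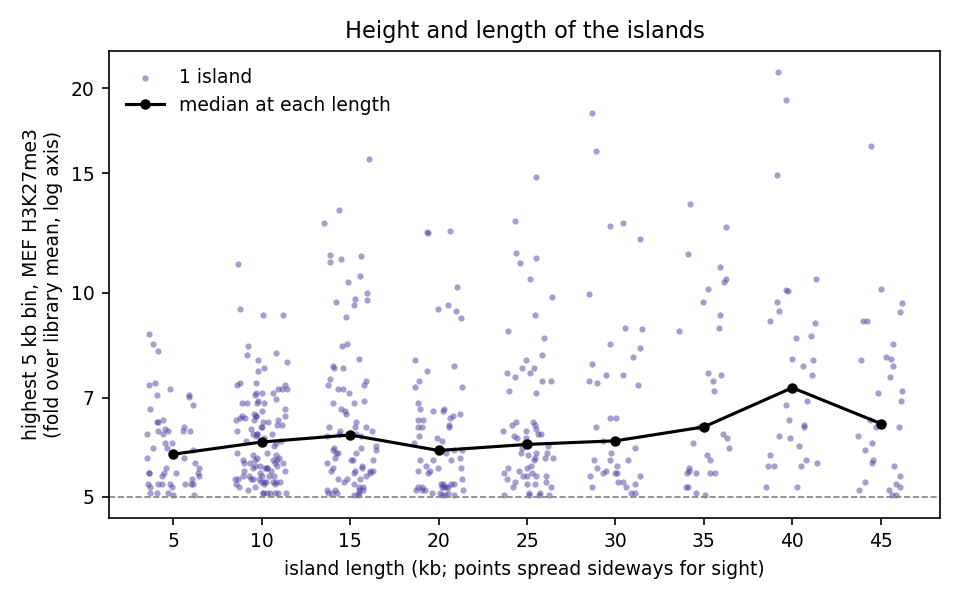
Highest 5 kb bin of MEF H3K27me3 (fold over library mean, log axis) against length (kb) for the 523 islands, 1 point each, with the median at each length as a black line and the 5-fold limit dashed. The medians lie between 5.77-fold at 5 kb and 7.24-fold at 40 kb, and islands above 10-fold occur from 10 kb upwards.

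The highest islands were each read in all 4 libraries. On chromosome 1 from 13080001 to 13120000, the bin from 13110001 to 13115000 reached 21.2-fold H3K27me3 (95% interval 19.2 to 23.2) with 434 reads. That bin had 1.98-fold H3K4me3, just under the limit, with 3.32-fold H3K9me3 in secondary MEF and 8.18-fold in MEF. It therefore carried the highest MEF H3K9me3 of any island's highest bin. On chromosome 16 from 91095001 to 91135000 the highest bin had 19.2-fold H3K27me3 (17.4 to 21.2) and 1.47-fold H3K4me3, with H3K9me3 at 4.39-fold in secondary MEF against 5.03-fold in MEF. On chromosome 12 from 85440001 to 85470000 it had 18.4-fold H3K27me3 (16.6 to 20.4) and 1.51-fold H3K4me3, with H3K9me3 at 8.60-fold in secondary MEF against 6.47-fold in MEF. This was the highest secondary MEF H3K9me3 of any highest bin.

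The islands on chromosome 19 from 25655001 to 25700000, chromosome 9 from 40620001 to 40650000 and chromosome 2 from 146520001 to 146535000 peaked at 16.5-fold, 16.2-fold and 15.7-fold H3K27me3. Their H3K4me3 in the same bins was 1.67-fold, 1.47-fold and 1.78-fold. H3K9me3 was 3.14-fold, 5.16-fold and 2.79-fold in secondary MEF, against 4.65-fold, 5.03-fold and 4.97-fold in MEF. The MEF levels of these 3 islands were thus close together, and the secondary levels were not. The other islands among the 10 highest were on chromosome 15 from 75375001 to 75415000 (14.9-fold), chromosome 5 from 28780001 to 28805000 (14.8-fold), chromosome 9 from 107080001 to 107115000 (13.5-fold) and chromosome 7 from 78750001 to 78765000 (13.3-fold). In their highest bins H3K9me3 ranged from 1.78-fold to 4.45-fold in secondary MEF and from 3.15-fold to 4.38-fold in MEF. By reads over the whole island, chromosome 19 led with 1294 H3K27me3 reads in 45 kb, followed by chromosome 16 with 1238 in 40 kb. Next came the island on chromosome 14 from 47570001 to 47600000, with 1150 in 30 kb and a highest bin of 12.5-fold.

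The lowest members peaked at 5.02-fold, a value that several shared, and the highest regions left out for their height alone peaked at 4.97-fold. In all, 155 islands peaked under 5.5-fold, and 229 regions that met the other conditions peaked from 4.5-fold to 5-fold. For H3K4me3, the nearest bins inside the limit stood at 1.98-fold and the nearest outside at 2.01-fold. There were 32 islands of 45 kb and 23 regions of 50 kb that met the other conditions. None of the 3 limits fell in a gap between members and other regions.

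At a scale finer than the bin, the H3K27me3 of an island was gathered around a summit. The summit was placed on plus-strand H3K27me3 reads in 500 bp windows and H3K27me3 was then read from minus-strand reads, which had no part in placing it. The mean over the 523 islands was 10.9-fold in the central 1.5 kb (95% interval 10.7 to 11.1), 3.85-fold at 2 to 4 kb and 2.03-fold at 10 to 30 kb. The mean signal thus had a summit and a broad foot. The 1.5 kb plateau has the width of the window that placed the summit, and widths of single islands followed the window used. At 50% of the summit the median width was 1.5 kb in 250 bp windows, 3 kb in 500 bp windows and 5 kb in 1 kb windows, so no width of its own is given to an island. In the 2.5 kb around the highest 500 bp window lay a median of 28.2% of an island's H3K27me3 reads, from 72.1% in islands of 5 kb to 11.8% in those of 45 kb.

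All other libraries were raised at the same summits. Secondary MEF H3K9me3 stood at 2.96-fold (2.90 to 3.03) in the central 1.5 kb and at 1.43-fold 10 to 30 kb away, while MEF H3K9me3 stood at 4.16-fold (4.09 to 4.24) and 1.62-fold. The rise of the centre over those surroundings was 2.08 times for secondary MEF H3K9me3 and 2.58 times for MEF H3K9me3, against 5.36 times for H3K27me3. H3K4me3 had a small central rise inside a trough: 2.05-fold (2.00 to 2.09) in the centre, 0.676-fold at 2 to 4 kb and 1.43-fold at 10 to 30 kb. The trough lies where the rule held the bins under 2-fold, and is a description. At the summits of short regions with H3K4me3, the centre reached 15.5-fold H3K4me3 and 17.6-fold H3K27me3. In the islands each of these libraries stepped up at the edge of the window that placed the summit. From -1 kb to -0.5 kb, secondary MEF H3K9me3 went from 1.93-fold to 2.83-fold and MEF H3K9me3 from 2.60-fold to 4.04-fold. H3K4me3 went from 0.918-fold to 1.88-fold there. No input library was set beside these centres, and mappability shared by the libraries was not tested.

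**Figure D2:**
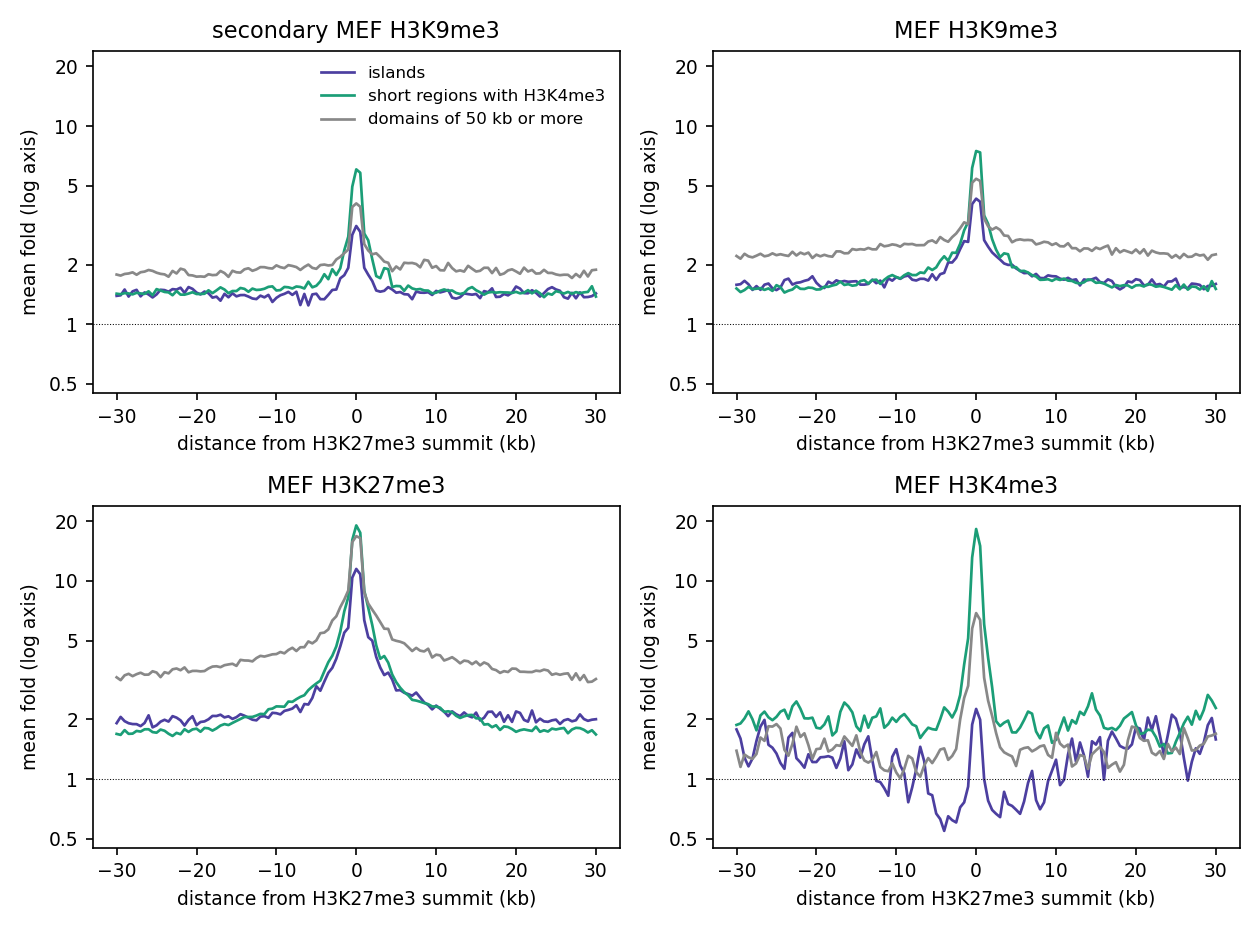
Mean fold (log axis) of each library in 500 bp windows against distance from the H3K27me3 summit (kb), for the 523 islands, 1702 short regions with H3K4me3 and 762 domains of 50 kb or more; the dotted line is the library mean. H3K27me3 is drawn from minus-strand reads and the summit was placed on plus-strand reads. The islands reach 10.9-fold H3K27me3 over the central 1.5 kb, and their H3K4me3 shows a small rise to 2.05-fold between flanks of 0.676-fold.

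Narrow H3K4me3 below the resolution of the rule was present in a minority of islands. In 1 kb windows the highest H3K4me3 of an island had a median of 2.90-fold and reached 8.52-fold. A window of 5-fold or more lay in 66 islands (12.6%), against 2.09% of all autosomal 1 kb windows, but an island offers many windows and the rule had set a ceiling on their sum, so these shares are not of like kind. The count was 193 in 500 bp windows and 121 with 5 kb added on each side. Of the 66 islands 53 had this window within 2 kb of the H3K27me3 summit, at a median distance of 0.250 kb. The window reached 8.52-fold in the islands on chromosome 2 from 4630001 to 4645000 and chromosome 16 from 32075001 to 32100000, and 7.94-fold on chromosome 19 from 30605001 to 30625000. Their highest H3K27me3 bins were 5.31-fold, 5.17-fold and 7.94-fold. Over all islands of 20 kb or more, 100 of 273 (36.6%) had their highest H3K4me3 window within 1 kb of the H3K27me3 summit, whatever its height, and 2.5 kb made up 9.06% of such an island on average. Being under 2-fold H3K4me3 in every 5 kb bin thus did not keep out islands with a narrow H3K4me3 signal.

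H3K9me3 was raised over the islands, in MEF more than in secondary MEF. Pooled over all islands it stood at 1.72-fold in secondary MEF (95% interval 1.71 to 1.74) and at 2.34-fold in MEF (2.33 to 2.36), beside 4.31-fold H3K27me3 and 0.808-fold H3K4me3. Single islands ranged from 0.564-fold to 4.33-fold in secondary MEF, with a median of 1.68-fold, and from 1.39-fold to 4.60-fold in MEF, with a median of 2.31-fold. A level of 2-fold or more was reached by 111 islands (21.2%, interval 17.8 to 24.98) in secondary MEF, against 9.89% of autosomal bins and 33.7% of all joined H3K27me3 regions. In MEF it was reached by 427 islands (81.6%, interval 78.1 to 84.9), against 9.94% of autosomal bins and 51.9% of joined regions. The secondary MEF share was thus below that of the joined regions as a whole, and the MEF share above it. Both shares were below those of the other strong regions. In short regions with H3K4me3 they were 50.1% in secondary MEF and 89.1% in MEF. In domains of 50 kb or more they were 38.3% and 94.2%.

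**Figure D3:**
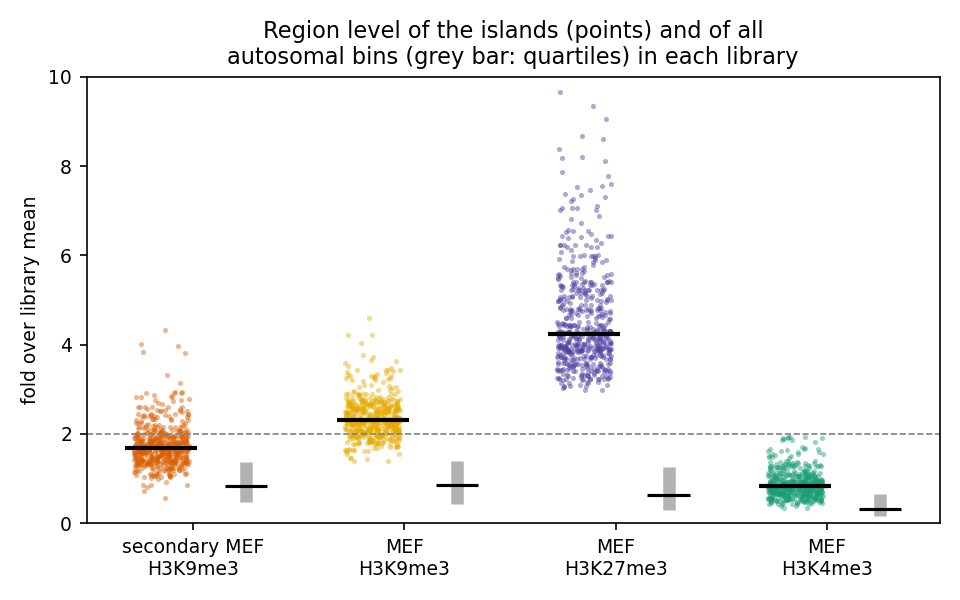
Level of each of the 523 islands (points, fold over library mean, with the median as a black bar) and the quartiles and median of all autosomal bins (grey bar and line) in each library; the dashed line is 2-fold. Island medians are 1.68-fold in secondary MEF H3K9me3, 2.31-fold in MEF H3K9me3, 4.24-fold in MEF H3K27me3 and 0.833-fold in MEF H3K4me3.

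By the mean over the whole island, which bins away from the summit lower in longer islands, the 5 islands with the most MEF H3K9me3 were of 5 or 10 kb. On chromosome 15 from 39685001 to 39690000, H3K9me3 was 2.61-fold in secondary MEF against 4.60-fold in MEF, with 8.38-fold H3K27me3. Another bin of chromosome 15, from 75860001 to 75865000, had 2.73-fold in secondary MEF against 4.22-fold in MEF, with 8.67-fold H3K27me3. On chromosome 17 from 8225001 to 8230000 it was 1.84-fold in secondary MEF against 4.22-fold in MEF, with 6.48-fold H3K27me3. The next was on chromosome 8 from 124135001 to 124145000, with 2.52-fold in secondary MEF against 4.04-fold in MEF. The last was on chromosome 1 from 4480001 to 4490000, with 1.69-fold in secondary MEF against 3.77-fold in MEF. The secondary values of these 5 are given as a description, since the islands were picked for their MEF level.

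Of the 5 islands with the most secondary MEF H3K9me3 over the whole island, 4 were on chromosome 12. They lay from 105735001 to 105745000 (4.33-fold in secondary MEF against 2.62-fold in MEF), from 108765001 to 108770000 (3.97-fold against 3.05-fold), from 85440001 to 85470000 (3.84-fold against 3.30-fold) and from 110030001 to 110070000 (3.81-fold against 2.46-fold). The fifth was on chromosome 17 from 29045001 to 29055000, at 4.004-fold in secondary MEF against 2.49-fold in MEF. On chromosome 12 every kind of H3K27me3 region had a higher H3K9me3 read share in secondary MEF than in MEF, as given below. The higher secondary level there was thus not particular to islands. Among the 50 islands with the highest bins, the lowest MEF H3K9me3 over the whole island was on chromosome 4 from 124980001 to 125000000, at 1.97-fold in secondary MEF against 1.95-fold in MEF, beside 5.57-fold H3K27me3 over the same 20 kb. In its highest bin, of 10.2-fold H3K27me3, the levels were 1.78-fold in secondary MEF against 3.48-fold in MEF. The others were on chromosome 1 from 158005001 to 158045000, chromosome 9 from 123520001 to 123535000 and from 107080001 to 107115000, and chromosome 5 from 147570001 to 147595000. Their H3K9me3 over the whole island was 1.55-fold, 1.44-fold, 1.41-fold and 1.53-fold in secondary MEF, against 1.96-fold, 2.03-fold, 2.04-fold and 2.05-fold in MEF. In the highest bins of these 5 islands MEF H3K9me3 ran from 2.94-fold to 3.64-fold, above the median of 2.83-fold for the highest bins of all islands. All 5 peaked between 10-fold and 15-fold H3K27me3, and islands of that height had a median of 3.80-fold MEF H3K9me3 in the highest bin. The highest bins are part of the whole-island mean by which these 5 were picked, and heights within that group were not matched. Their lower level there is therefore a description.

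Islands with a higher H3K27me3 bin had more H3K9me3 in that bin in both libraries. In islands that peaked between 5-fold and 6-fold H3K27me3, the median highest bin had 1.84-fold H3K9me3 in secondary MEF and 2.62-fold in MEF. In those between 10-fold and 15-fold the median highest bin had 2.43-fold in secondary MEF against 3.80-fold in MEF. Across the 523 highest bins, on log2 values, the Pearson correlation with H3K27me3 was 0.381 for secondary MEF H3K9me3 and 0.548 for MEF H3K9me3, and the Spearman correlation was 0.314 and 0.453. These correlations are descriptions: the values of a bin share its mappability and base composition, and the 3 MEF libraries also share a run name in the labels. H3K4me3, although capped by the rule, also correlated with H3K27me3 across the highest bins, at a Pearson value of 0.325. Over whole islands the Spearman correlation with H3K27me3 was 0.199 for secondary MEF H3K9me3, 0.405 for MEF H3K9me3 and 0.346 for H3K4me3.

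The share of H3K9me3 reads in the islands was lower in secondary MEF than in MEF. The ratio of read shares, secondary MEF over MEF, was 0.736 over all islands (95% interval 0.729 to 0.744) from 62732 and 94540 reads. Single islands had a median ratio of 0.720 with quartiles of 0.629 and 0.821, and 479 of 523 (91.6%) lay below 1. The ratio was 0.752 (0.740 to 0.763) in islands that peaked between 5-fold and 6-fold H3K27me3, 0.675 (0.652 to 0.699) between 10-fold and 15-fold, and 0.755 (0.705 to 0.808) in the 6 islands of 15-fold or more. Of those 6, the island on chromosome 12 had a ratio of 1.16 and the 5 others lay between 0.483 and 0.871. The cell source, the serum, the puromycin selection and the run named in the labels changed together, so they cannot be told apart.

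On the 18 autosomes other than chromosome 12, the ratio over the islands of a chromosome lay between 0.654 on chromosome 14 and 0.802 on chromosome 5. The 20 islands of chromosome 12 stood apart at 1.18 (1.13 to 1.23), and 16 of them had a ratio above 1, out of 44 such islands in all. With chromosome 12 left out of islands and library totals, the ratio was 0.732 (0.725 to 0.740). On chromosome 12 itself, the islands and the short regions with H3K4me3 had ratios of 1.18 and 1.16. Its domains had a ratio of 1.10 and its short regions without a 5-fold bin one of 1.29, so all 4 kinds of H3K27me3 region stood above 1 there. These ratios rest on library totals over all autosomes, so they include any difference in reads over chromosome 12 as a whole. Leaving this chromosome out moved the ratio of domains from 0.765 to 0.770, although its own domains stood higher. A ratio of its islands against the rest of chromosome 12 is not given here. When read totals were taken per chromosome, the ratio over all islands was 0.739 (0.732 to 0.747).

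Compared one by one, 22 islands had a ratio of 0.5 or less, that is, lower H3K9me3 in secondary MEF, with an interval allowing 0.1% error that excluded 1, and none was higher by the same measure. They were 4.21% of the islands (interval 2.65 to 6.30), against 1.47% lower and 0.624% higher of all joined regions, and 0.585% lower and 0.736% higher of the 317271 autosomal bins with enough reads. By the same measure 50 of 1703 short regions with H3K4me3 (2.94%) and 1 of 762 domains were lower. At 1.5-fold, 119 islands (22.8%) were lower and 3 higher, against 5.47% and 1.39% of joined regions. Of short regions with H3K4me3 15.4% were lower at 1.5-fold, and of domains 18.8%. At 3-fold no island was called in either direction. These calls compare 2 libraries and depend on reads, of which an island had a median of 259 in both together and a short region without a 5-fold bin only 81. The 22 islands lay on 12 chromosomes, with ratios from 0.343 to 0.496, and their highest bins had a median of 6.36-fold H3K27me3, near the 6.09-fold of the other islands.

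The lowest ratio was on chromosome 15 from 34395001 to 34400000, where 21 reads in secondary MEF stood against 68 in MEF and the ratio was 0.343 (0.136 to 0.764, an interval allowing 0.1% error, as for the islands that follow). It was 0.351 (0.132 to 0.819) on chromosome 11 from 23955001 to 23965000 and 0.370 (0.129 to 0.912) on chromosome 17 from 68175001 to 68180000. Both of these were small islands with few reads and correspondingly wide intervals. On chromosome 17 from 93500001 to 93510000 the ratio was 0.376 (0.192 to 0.692), from 38 reads in secondary MEF and 112 in MEF, with 8.14-fold H3K27me3 in the highest bin and no other H3K27me3 region within 3005 kb. On chromosome 14 from 38380001 to 38390000 it was 0.396 (0.196 to 0.751). The island with the highest bin of all, on chromosome 1 from 13080001 to 13120000, was among the 22 at 0.483 (0.355 to 0.648).

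No island was called higher, but the highest ratios among islands with 100 reads or more were 1.65 (1.07 to 2.58) on chromosome 12 from 105735001 to 105745000, 1.61 (1.03 to 2.55) on chromosome 17 from 29045001 to 29055000 and 1.55 (1.24 to 1.95) on chromosome 12 from 110030001 to 110070000. These 3 are the islands higher at 1.5-fold. On chromosome 12 every kind of H3K27me3 region stood above a ratio of 1, as given above. On chromosome 1 from 155950001 to 155970000 (1.48, 0.995 to 2.22) and chromosome 9 from 98510001 to 98525000 (1.32, 0.847 to 2.08) the interval included 1.

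**Figure D4:**
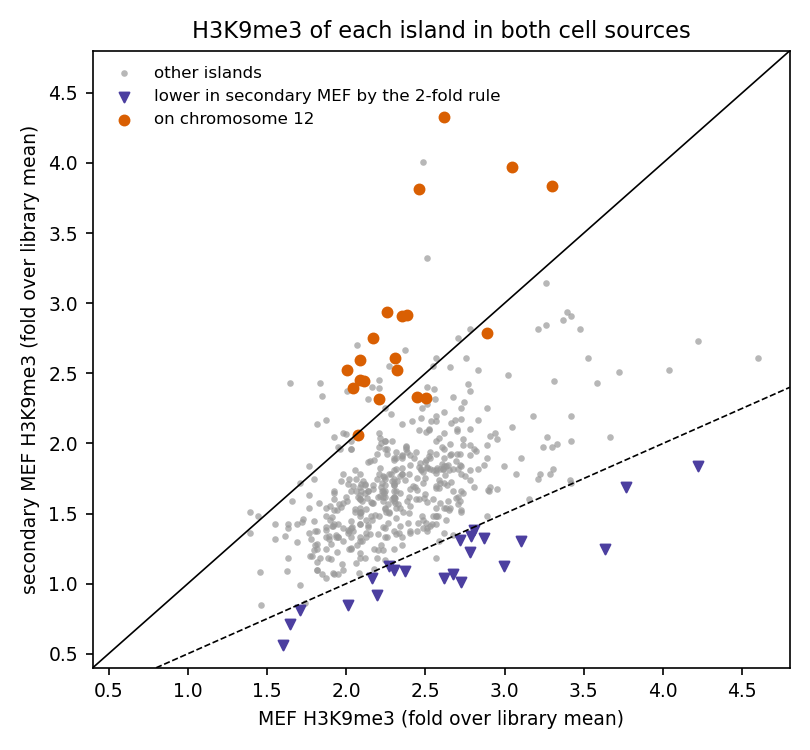
H3K9me3 of each island in secondary MEF against MEF, both as fold over the library mean, with equality as a solid line and a ratio of 0.5 dashed. Of the 523 islands 479 lie below equality, the 22 called lower are marked as triangles, and 16 of the 20 islands of chromosome 12 lie above it.

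Islands had a lower ratio than short regions with H3K4me3, which meet the same limits of length and height but have at least 1 bin of 2-fold or more H3K4me3. There were 1703 such regions, so islands made up 23.5% of the short regions with a 5-fold bin. The ratio of H3K9me3 read shares was 0.736 in the islands and 0.812 in the regions with H3K4me3, and the first was 0.907 times the second (95% interval 0.896 to 0.917). The spread between single regions was wider than this difference, with quartiles of 0.629 and 0.821 for islands and of 0.682 and 0.914 for regions with H3K4me3. Regions with H3K4me3 also had more H3K27me3, so bins were also compared within classes of H3K27me3. This narrowed the difference in H3K27me3 without closing it in every class. The quotient of the H3K9me3 ratios, 0.907 when pooled, ran from 0.886 to 0.932 across these classes. Between 5-fold and 10-fold H3K27me3 the ratio was 0.696 in islands and 0.785 in regions with H3K4me3, and the first was 0.886 times the second (0.869 to 0.903). The median bin of this class still had less H3K27me3 in islands, 5.87-fold against 6.53-fold. It had 1.90-fold H3K9me3 in islands and 2.19-fold in regions with H3K4me3 in secondary MEF, and 2.78-fold and 2.99-fold in MEF. In the classes of 2-fold to 3-fold and 3-fold to 5-fold, where H3K27me3 medians were closer, MEF H3K9me3 medians were the same in both kinds of region, 1.87-fold and 2.25-fold. The ratio was lower in islands in both classes, at 0.788 against 0.887 and at 0.746 against 0.8003. Leaving out 39 regions with a bin of 5-fold or more in all 4 libraries moved the pooled ratio of regions with H3K4me3 to 0.801, still above the islands.

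The ratios of islands and domains of 50 kb or more were closer. Domains were set apart by length alone, without the limits on height and H3K4me3. In 50.3% of them the highest H3K27me3 bin also had 2-fold or more H3K4me3, and the lowest peaked at 3.17-fold H3K27me3. The comparison is therefore not one of length alone. The 762 domains had a ratio of 0.765, so the islands' ratio was 0.963 times theirs (0.952 to 0.973). In bins between 5-fold and 10-fold H3K27me3 it was 0.696 in islands and 0.700 in domains, and their quotient was 0.994 (0.976 to 1.01), an interval that includes 1, with median H3K27me3 of 5.87-fold and 6.29-fold. Between 2-fold and 3-fold H3K27me3 the islands were lower, at 0.788 against 0.836. At 10-fold or more the quotient was 0.890 (0.844 to 0.939), and 0.978 (0.926 to 1.03) once bins of 5-fold or more in all 4 libraries were left out, none of which lay in an island. Median MEF H3K9me3 between 5-fold and 10-fold H3K27me3 was 2.78-fold in islands and 2.99-fold in domains, and between 3-fold and 5-fold it was 2.25-fold and 2.35-fold. In secondary MEF these medians were 1.90-fold against 2.08-fold, and 1.60-fold against 1.78-fold. All of these intervals cover counting error within 1 library of each kind.

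**Figure D5:**
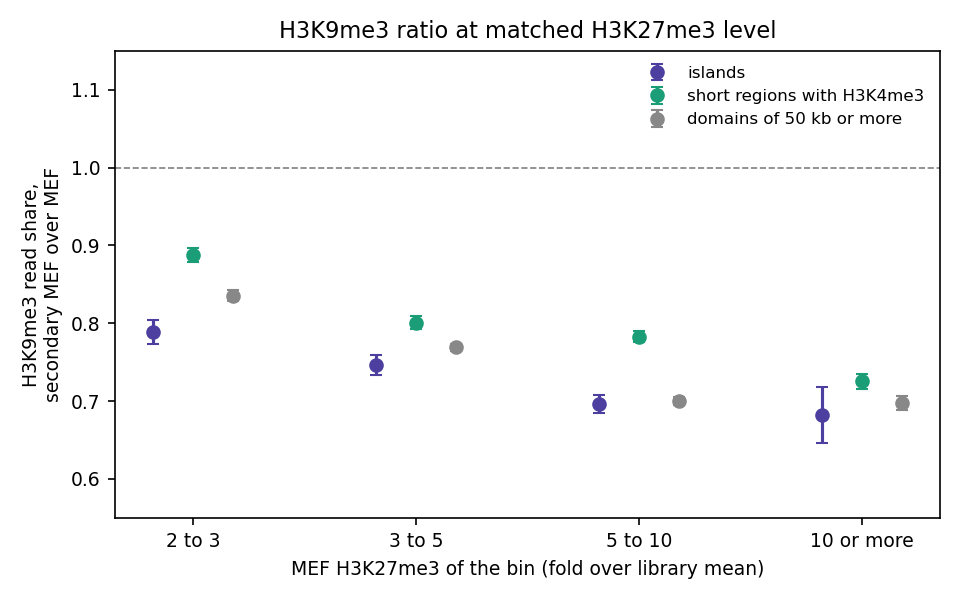
Ratio of H3K9me3 read shares, secondary MEF over MEF, in bins of islands, short regions with H3K4me3 and domains of 50 kb or more, by MEF H3K27me3 of the bin (fold over library mean), with 95% intervals for counting error; bins of 5-fold or more in all 4 libraries are left out. Between 5-fold and 10-fold the islands stand at 0.696, regions with H3K4me3 at 0.783 and domains at 0.700.

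Most islands were not alone. Of 523 islands 301 (57.6%) had another joined H3K27me3 region with only 1 bin in between, and 461 (88.1%) had one within 50 kb. For short regions with H3K4me3 these shares were 43.2% and 79.5%. The shares over all autosomal bins or all joined regions are not given here. A domain of 50 kb or more lay within 50 kb of 105 islands (20.1%, interval 16.7 to 23.8) and of 13.2% (11.6 to 14.9) of the regions with H3K4me3. Joining regions across 1 bin of less than 2-fold left 311 islands, and across 2 bins 222 (this alternative was chosen after seeing the data). The ratio of H3K9me3 shares over the 311 was 0.749.

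The 62 islands with no other joined region within 50 kb were shorter, with a median of 10 kb, against 20 kb for the other 461. Their median highest bin was 5.97-fold against 6.09-fold, their pooled H3K9me3 was 1.79-fold against 1.72-fold in secondary MEF and 2.37-fold against 2.34-fold in MEF, and their ratio was 0.756 (0.726 to 0.786) against 0.735 (0.727 to 0.743). The islands on chromosome 2 from 146520001 to 146535000 (15.7-fold) and chromosome 5 from 28780001 to 28805000 (14.8-fold) were the highest of these, with 200.0 kb and 140.0 kb to the next region. Lone islands were thus shorter, and the intervals of the 2 ratios overlapped.

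By the median, H3K4me3 lay nearer to islands than to autosomal bins under 2-fold H3K4me3, but no nearer than to the other H3K27me3 regions compared here. Distances were taken from region edges, and islands had a median length of 20 kb, while each autosomal bin was 5 kb. A bin of 2-fold or more H3K4me3 adjoined 64 islands (12.2%, interval 9.55 to 15.4), against 8.16% of autosomal bins that were under 2-fold themselves. Within 50 kb such a bin was found for 336 islands (64.2%), against 39.8% of those bins, 66.6% of short regions with H3K4me3 and 86.0% of domains. The median distance was 30 kb for islands, 25 kb for short regions with H3K4me3, 15 kb for domains and 90 kb for the autosomal bins. The islands not alone had a median of 30 kb, and the 62 lone islands had one of 160.0 kb.

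Islands were found on all 19 autosomes, at 2.25 per 10 Mb of covered bins. The density was lowest on chromosome 3, with 11 islands or 0.716 per 10 Mb (0.357 to 1.28), and on chromosome 13, with 10 islands or 0.884. It was highest on chromosome 11, with 45 islands or 3.82 per 10 Mb (2.79 to 5.12), followed by chromosomes 17, 19 and 7. Against short regions with H3K4me3 the range was narrower: islands made up from 12.2% on chromosome 3 to 31.6% on chromosome 4 of the short regions with a 5-fold bin. Of 2413 windows of 1 Mb with reads, 399 held an island and 305 of these held just 1. The most in a window was 4, reached in 6 windows. These were on chromosomes 4, 5, 7, 10, 11 and 12, starting at 46000001, 137000001, 126000001, 61000001, 58000001 and 87000001.

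The island reads did not rest on a few positions. In the highest bins 92.2% of H3K27me3 reads were at distinct positions, against 93.8% over all autosomal reads, and the least of any single highest bin was 67.0%. For secondary MEF and MEF H3K9me3 the shares in the highest bins were 97.4% and 97.8%. Listings of reads with 2 locations amounted to 2.30% of the 1-location H3K27me3 reads in the islands and 5.31% over the autosomes, a share that is lower wherever 1-location H3K27me3 reads are dense, as the rule made them here. With 1 read per position counted throughout, 456 islands were found, of which 434 shared their highest bin with the 523.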

How the data were processed

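The deposited values are other than levels: signed positions of aligned reads, 1 list per library, a minus sign marking the minus strand. The authors used Bowtie on mm8 with --best, --concise, -l 36, -n 2, -m 2, -k 2 and -e 70, per the file headers; its version, and whether repeated reads were removed, were not given in the sources used here. Here, reads with 1 location were counted, so sequence with more copies is poorly covered. A 36-base read was moved 75 bp from its 5' end, near the midpoint of fragments of 146 to 166 bp that the lag between strands on chromosome 2 gave. Per the labels, fragments averaging 500 bp were amplified over 18 cycles and 150 to 350 bp products were kept.

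Reads were counted with Python 3.11.15, NumPy 2.4.6, SciPy 1.17.1 and pandas 2.3.3, and the rules were tested on simulated data. Intervals are Poisson for a fold, Clopper-Pearson for a share or ratio (at the 95% level, or allowing 0.1% error in the comparison of islands one by one, with at least 20 reads in the 2 libraries together) and Wald on the log scale for a ratio of ratios. Correlations used log2(fold + 0.1). No p-value was computed, since each group held 1 library. The samples were grouped by their titles.

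Named islands followed a rule: the 10 highest, the 5 highest in each H3K9me3 library, the 5 lowest in MEF H3K9me3 among the 50 highest, the 5 lowest ratios called and the 5 highest ratios, and the 3 with the most H3K27me3 reads and the highest 1 kb H3K4me3 window. The lone islands, the 1 Mb windows and the island with the highest bin among those called lower were named after their values were seen. The islands and all comparisons were chosen with earlier results of these data known. Base composition, sequences and genes were planned but not run, because no genome or annotation of mm8 was used here.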

Additional observations from a re-analysis of the deposited data

How the results depend on the processing

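No paired analysis was possible because each group held 1 library. Bridged bins and the alternatives for the quotients of ratios were chosen after seeing the data. The number of islands, 523, became 1359 in 2.5 kb bins, 196 in 10 kb bins, 88 with a highest bin of 8-fold or more, 317 under 25 kb, and 311 and 222 with 1 and 2 bins bridged; under the other 10 settings it stayed between 364 and 776. Pooled secondary MEF H3K9me3 over the islands was 1.69-fold with H3K4me3 under 1.5-fold and 1.67-fold with 1 bin bridged. MEF H3K9me3 was then 2.30-fold and 2.23-fold, and 2.48-fold with a highest bin of 8-fold. H3K27me3 was 4.26-fold with 1 read per position, 5.33-fold with a highest bin of 8-fold, 4.23-fold with H3K4me3 under 1.5-fold and 4.05-fold bridged. H3K4me3 was 0.846-fold, 0.776-fold and 0.730-fold under the first 3 of these.

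The ratio of H3K9me3 shares stayed below 1 under all 9 alternatives. It moved beyond its counting interval to 0.698 with a highest bin of 8-fold, 0.749 bridged and 0.717 scaled by reads outside H3K27me3 regions and H3K4me3 bins. Islands of 2-fold H3K9me3 numbered 17 in secondary MEF and 78 in MEF with a highest bin of 8-fold, and 70 in secondary MEF with H3K4me3 under 1.5-fold, where fewer islands were left. Islands lower in secondary MEF numbered 119 at 1.5-fold and 0 at 3-fold, and those higher 3 at 1.5-fold. When read totals were taken per chromosome, 19 were lower and 0 higher at 2-fold. The width at 50% was 1.5 kb in 250 bp windows, 5 kb in 1 kb windows and 2.5 kb with a 1-fold background subtracted. The share of reads around the summit was 25.9% in 250 bp windows, 33.1% in 1 kb windows and 27.9% with 1 read per position. Islands with narrow H3K4me3 numbered 193 in 500 bp windows, 240 at 3-fold and 121 with 5 kb added on each side. The quotient of islands and domains, 0.963, was 0.994 in bins of 5-fold to 10-fold, with 1 inside its interval; the cause was not tested. Depth limits the comparison of single islands: the median island had 259 H3K9me3 reads in the 2 libraries together.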
